A study of Mus musculus with 6 samples.

Results

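The genes described here are the platelet-derived growth factor (PDGF) ligands Pdgfa, Pdgfb, Pdgfc and Pdgfd, their receptors Pdgfra and Pdgfrb, and the pericyte markers Cspg4, Rgs5, Des and Mcam. They were chosen by gene symbol, and all 10 were found, once each, among the 33679 genes of the deposited table. Messenger RNA was sequenced from mouse kidneys with unilateral ureteral obstruction, where the ureter of one kidney is tied surgically and that kidney becomes fibrotic. One group carried the genotype Cd248 KO, a knockout of the gene for endosialin, a glycoprotein of fibroblasts and pericytes, and the other was wild type. Both groups were obstructed, and no unobstructed kidney was analysed here. The labels give no strain, age, sex, time after surgery or knockout design. The labels name 3 samples of each genotype, and values were analysed here for 4 libraries, knockout replicate 1 and wild type replicates 1, 2 and 3. Each knockout value is therefore a single measurement, and all SDs are over the 3 wild type libraries. The library protocol speaks of pooled RNA, and the labels name no separate animals, so p-values reflect no more than library-to-library spread, which could be technical.

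PDGF chains act as disulphide-linked dimers that bring a pair of receptor tyrosine kinases together. The A, B and C chains bind receptor alpha, and the B and D chains bind receptor beta. PDGF-B from endothelial cells recruits pericytes, the mural cells of capillaries, which carry receptor beta, and in the kidney it is needed for the mesangial cells of the glomerulus. Cells with either receptor include the resident fibroblasts and pericytes from which myofibroblasts of the scarred kidney arise.

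Cd248 itself was listed at 0 FPKM (fragments mapped to a gene, scaled to its length and to the mapped fragments of the library) in the Cd248 knockout and at 9.03, 9.57 and 8.78 FPKM in replicates 1, 2 and 3 of wild type, which follows the labels. The kidney marker Slc34a1, the phosphate transporter of the proximal tubule, was present in every library, between 32.8 and 141.6 FPKM. Total FPKM lay between 267394 and 285322 in wild type and at 304426 in the Cd248 knockout, and the read depth is unknown. Of 16871 genes tested, 122 (0.723%) passed limma's test with adjusted p below 0.05. Of these, 108 (0.640% of those tested) were higher and 14 (0.0830%) lower in the Cd248 knockout.

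None of the 10 PDGF and pericyte genes passed that test (limma adjusted p between 0.372 and 0.88), in either direction, against 0.723% of all tested genes, 0.0830% lower and 0.640% higher. Of these 10 genes, 3 had an unadjusted limma p under 0.05, Mcam, Des and Pdgfrb, all lower in the Cd248 knockout. At that unadjusted threshold 10.8% of all tested genes differed in either direction and 5.63% were lower. The difference was below 0 for 7 of the 10 genes and for 51.4% of all tested genes. The knockout library lay below every wild type library for 6 of the 10 genes: both receptors, Pdgfb, Rgs5, Des and Mcam. Across all tested genes this share was 31.2%, and it was 35.4% of the 8812 tested genes whose wild type mean lay within the range of these 10. The other 4, Pdgfa, Pdgfc, Pdgfd and Cspg4, lay inside the wild type range. None lay above every wild type library, as 28.0% of all tested genes did. The median difference, knockout minus wild type, was -0.32 on the log2(FPKM + 1) scale over the 10 genes, all of which passed the filter on low values, and -0.01 over all tested genes, whose middle quartiles ran from -0.13 to 0.13. An exact permutation test of a single gene in this layout cannot give a p below 0.25. For Pdgfra and Rgs5 the knockout was not the most distant library: wild type replicate 2 stood further from the mean of the others.

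**Figure D1:**
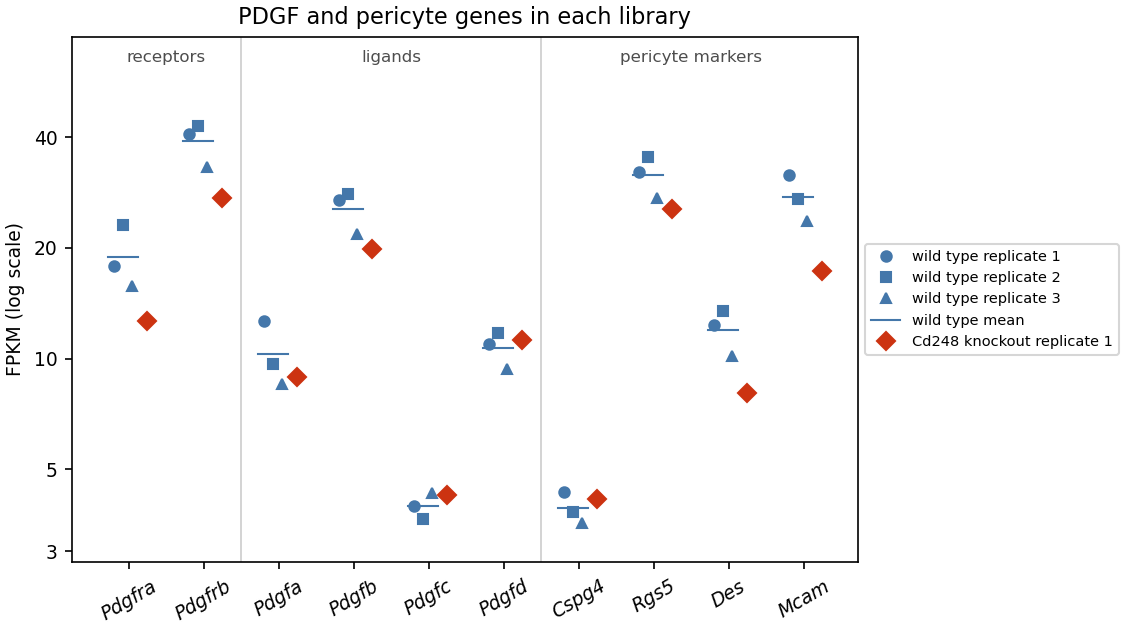
FPKM (log scale) of the 10 PDGF and pericyte genes in each library. Blue symbols are wild type replicates 1, 2 and 3 with their mean as a line, and red diamonds are Cd248 knockout replicate 1; the diamond lies below all blue symbols for Pdgfra, Pdgfrb, Pdgfb, Rgs5, Des and Mcam and among them for the other genes.

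Promoter sequences were matched in RefSeq (build GRCm38.p6, the build of mm10) for 8 of the 10 genes, all but Pdgfb and Pdgfrb. Those of Pdgfra, Des and Mcam are shown because these genes lay below the wild type range by the widest margins among the matched genes, and that of Pdgfc because it holds the sequence bound by serum response factor and its level stayed inside the wild type range. Each is the plus strand of the 250 bases before the RefSeq start; that of Mcam ends earlier, after 61 bases, since the GENCODE gene begins there.
Pdgfra, chr5:75152001-75152250: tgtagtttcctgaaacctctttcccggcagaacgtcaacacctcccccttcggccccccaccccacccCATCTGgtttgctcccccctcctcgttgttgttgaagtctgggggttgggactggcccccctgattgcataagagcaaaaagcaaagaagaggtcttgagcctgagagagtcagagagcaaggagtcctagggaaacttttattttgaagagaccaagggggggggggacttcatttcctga
Pdgfc, chr3:81036166-81036415: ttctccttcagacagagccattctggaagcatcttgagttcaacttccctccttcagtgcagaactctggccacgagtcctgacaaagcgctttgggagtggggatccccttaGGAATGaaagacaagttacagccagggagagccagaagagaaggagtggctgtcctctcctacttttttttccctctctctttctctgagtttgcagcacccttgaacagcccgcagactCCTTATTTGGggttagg
Des, chr1:75360042-75360291: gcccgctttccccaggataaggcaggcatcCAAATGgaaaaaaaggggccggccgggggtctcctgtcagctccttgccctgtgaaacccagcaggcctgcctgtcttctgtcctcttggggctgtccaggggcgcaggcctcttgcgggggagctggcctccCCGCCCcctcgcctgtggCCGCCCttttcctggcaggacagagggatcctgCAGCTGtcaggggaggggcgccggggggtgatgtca
Mcam, chr9:44134408-44134468: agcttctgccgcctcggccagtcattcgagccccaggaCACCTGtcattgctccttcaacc
Capitals mark every match, on either strand, to the CArG box of serum response factor, the E-box CANNTG of basic helix-loop-helix factors, the GC box GGGCGG, the TATA box TATAAA, the TEAD element GGAATG or the RBPJ element TGGGAA. None of the capital runs shown joins overlapping motifs.

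In the full window of 300 bases, which adds 50 bases after the start, Pdgfc held 1 CArG box, which begins 17 bases before the start, and 2 TEAD elements. A CArG box was found in 1.63% of 32851 RefSeq promoters of this length and a TEAD element in 14.7%. Desmin, the intermediate filament of muscle and mural cells, had 2 E-boxes and 2 GC boxes in its promoter, and the full Mcam window had 2 E-boxes and 5 GC boxes. Pdgfra had 2 E-boxes only, and Rgs5 had 1. E-boxes were found in 72.3% of all promoters, and GC boxes in 35.7%. Cspg4 held GC boxes only. The Pdgfd window held 1 RBPJ element and was the only one of the matched genes with a TATA box (13.6% of all promoters). That TATA match begins 160 bases before the start. The 2 RefSeq promoters of Pdgfa together held 3 GC boxes and 1 RBPJ element. An RBPJ element was found in 25.6% of all promoters. An E-box was found in 4 of the 9 promoters of the matched genes, against 72.3% of all promoters. Those 4, of Pdgfra, Rgs5, Des and Mcam, belong to the matched genes that lay below every wild type library. A link between the motif and the levels was not tested. These matches describe the letters of the windows and were not tested as binding sites.

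Both receptors were lower in the Cd248 knockout than in any wild type library. Pdgfra (ENSMUSG00000029231; mm10, chromosome 5, 75152292 to 75198215, plus strand), the receptor of fibroblasts and of oligodendrocyte progenitors, was at 12.7 FPKM in the Cd248 knockout and at 17.9, 23.1 and 15.8 FPKM in replicates 1, 2 and 3 of wild type. Wild type replicate 2 stood highest, and the nearest wild type library was 1.25 times the knockout value. The knockout value was 0.67 of the wild type mean of 18.9 ± 3.76 FPKM (SD, n = 3), a difference of -0.53 on the log2(FPKM + 1) scale (SE 0.22, 95% interval -1.13 to 0.07, limma adjusted p = 0.508). Pdgfrb (ENSMUSG00000024620; chromosome 18, 61045150 to 61085061, plus strand), the receptor of pericytes, mesangial cells and vascular smooth muscle, was at 27.3 FPKM in the Cd248 knockout and at 40.8, 43.0 and 33.1 FPKM in the wild type libraries. Replicate 3 was the lowest wild type library here too, 1.21 times the knockout value. The ratio to the wild type mean of 39.0 ± 5.16 FPKM (SD, n = 3) was 0.70 and the difference -0.49 (SE 0.17, 95% interval -0.95 to -0.03, limma adjusted p = 0.445).

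The ratio between the receptors stayed inside the wild type spread. Pdgfra was 0.46 of Pdgfrb in the Cd248 knockout and 0.44, 0.54 and 0.48 of it in wild type replicates 1, 2 and 3. Such ratios within a library do not depend on how libraries are scaled.

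The neighbouring receptor genes gave other values. Kit, the stem cell factor receptor, is the next protein-coding gene beyond Pdgfra, and it was at 4.66 FPKM in the Cd248 knockout against 5.90, 5.29 and 3.89 FPKM in the wild type libraries (limma adjusted p = 0.922). Csf1r, the macrophage growth factor receptor, begins 15537 bases after the end of Pdgfrb, and it was at 36.4 FPKM against 40.2, 32.9 and 38.3 FPKM (limma adjusted p = 0.971). Both lay inside the wild type range. Of the 6 class III and VEGF receptor genes listed, 0 passed the test. Below every wild type library lay 3 (Kdr, Flt1 and Flt4, the VEGF receptors of endothelium), and 1 lay above (Flt3). For this list and those that follow, the shares over all tested genes were 31.2% below and 28.0% above. The median difference of the 6 genes was -0.15 on the log2 scale. That median was -0.067 without wild type replicate 1, -0.26 without replicate 3 and -0.26 once FPKM totals were made equal. Kdr was at 6.46 FPKM against 8.41, 7.93 and 6.82 FPKM (limma adjusted p = 0.626). Flt4 had the widest difference of the 6, with 3.13 FPKM against 4.44 ± 0.61 FPKM (SD, n = 3; limma adjusted p = 0.483). Flt3, a receptor of dendritic cell progenitors, was at 1.53 against 0.95 ± 0.03 FPKM (SD, n = 3; limma adjusted p = 0.424), and Flt1 was at 4.15 against 5.29 ± 1.13 FPKM (limma adjusted p = 0.705).

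Among the ligands, Pdgfb alone lay below the wild type range. Pdgfb (ENSMUSG00000000489; chromosome 15, 79995874 to 80014977, minus strand), the chain made by endothelial cells and platelets, was at 19.9 FPKM in the Cd248 knockout and at 27.0, 28.0 and 21.8 FPKM in the wild type libraries. It lay close to replicate 3, which was 1.09 times the knockout value. The difference from the wild type mean of 25.6 ± 3.34 FPKM (SD, n = 3) was -0.34 (SE 0.17, 95% interval -0.79 to 0.11, limma adjusted p = 0.559). Pdgfa (ENSMUSG00000025856; chromosome 5, 138976014 to 138997370, minus strand), a ligand of receptor alpha, was at 8.89 FPKM against 12.7, 9.65 and 8.54 FPKM. Wild type replicate 1 stood highest. The difference was -0.17 (SE 0.22, limma adjusted p = 0.812), and -0.027 without that library.

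The CUB-domain ligands, which are secreted in a latent form and released by proteases, did not differ beyond the wild type spread. Pdgfc (ENSMUSG00000028019; chromosome 3, 81036416 to 81214040, plus strand), a ligand of receptor alpha, was at 4.25 FPKM in the Cd248 knockout and at 3.98, 3.66 and 4.32 FPKM in the wild type libraries. Its difference was 0.08 (95% interval -0.24 to 0.39), and -0.032 once FPKM totals were made equal. Pdgfd (ENSMUSG00000032006; chromosome 9, 6168584 to 6378850, plus strand), a ligand of receptor beta, was at 11.3 FPKM against 11.0, 11.7 and 9.37 FPKM. Its difference was 0.07 (95% interval -0.31 to 0.46), -0.051 once FPKM totals were made equal and -0.012 without wild type replicate 3.

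Summed FPKM of the 4 ligands was 44.3 in the Cd248 knockout and 54.6, 53.1 and 43.99 in the wild type libraries, inside the wild type range. Within that sum the share of Pdgfb was lower, and that of Pdgfd higher, than in any wild type library. Pdgfb made up 44.9% of it in the Cd248 knockout and 49.4%, 52.8% and 49.5% in wild type replicates 1, 2 and 3. Pdgfd made up 25.4% against 20.1%, 22.1% and 21.3%. The knockout shares of both lay outside the wild type range, and those of Pdgfa (20.1% against 18.2% to 23.2%) and Pdgfc (9.60% against 6.90% to 9.82%) lay inside it. The 4 ligands together were 1.11 times the summed receptors in the Cd248 knockout and 0.93, 0.80 and 0.90 times in the wild type libraries. With 1 knockout library the exact permutation p of any such ratio is 0.25 at the least.

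**Figure D2:**
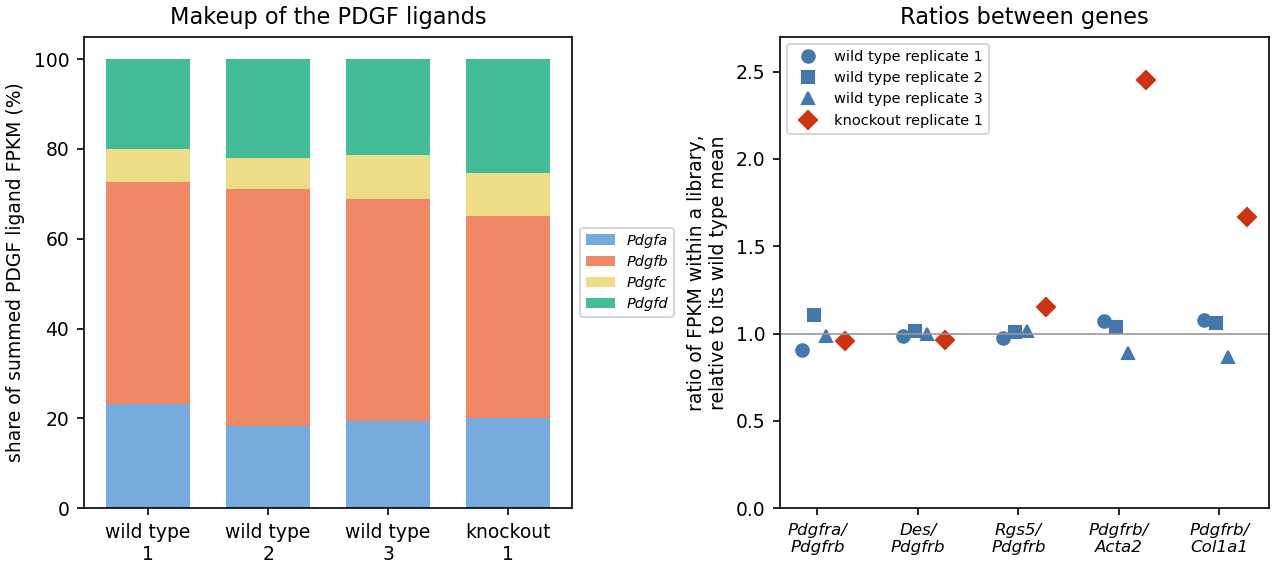
Left, bars give the share (%) of each ligand gene in the summed PDGF ligand FPKM of each library, with Pdgfb at 44.9% in the Cd248 knockout against 49.4% to 52.8% in wild type. Right, ratios of FPKM between genes within a library, each divided by its wild type mean (blue symbols, wild type replicates 1, 2 and 3; red diamonds, knockout replicate 1); the knockout value is 0.96 for Pdgfra over Pdgfrb and 2.45 for Pdgfrb over Acta2.

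Of the 4 pericyte markers, Mcam, Des and Rgs5 lay below every wild type library and Cspg4 did not. Mcam (ENSMUSG00000032135; chromosome 9, 44134469 to 44142727, plus strand), the adhesion molecule CD146 of pericytes and endothelium, was at 17.4 FPKM in the Cd248 knockout and at 31.5, 27.3 and 23.7 FPKM in the wild type libraries. It stood furthest below the wild type range of the 10 genes, with the nearest wild type library at 1.36 times the knockout value. Its difference from the wild type mean of 27.5 ± 3.90 FPKM (SD, n = 3) was -0.62 (SE 0.17, 95% interval -1.09 to -0.16, limma adjusted p = 0.372). Desmin, encoded by Des (ENSMUSG00000026208; chromosome 1, 75360329 to 75368579, plus strand), was at 8.07 FPKM against 12.4, 13.4 and 10.2 FPKM. The knockout value was 0.67 of the wild type mean of 12.0 ± 1.68 FPKM (SD, n = 3), a difference of -0.51 (SE 0.17, 95% interval -0.97 to -0.05, limma adjusted p = 0.436). Listed skeletal muscle genes, another possible source of Des transcripts, were under 1 FPKM in every library for all 5 that were found.

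Rgs5 (ENSMUSG00000026678; chromosome 1, 169655501 to 169695813, plus strand), a brake on G protein signalling that marks pericytes, was at 25.5 FPKM against 32.3, 35.3 and 27.4 FPKM. Replicate 3 was 1.07 times the knockout value, and the difference was -0.29 (SE 0.16, 95% interval -0.73 to 0.14, limma adjusted p = 0.594). Cspg4 (ENSMUSG00000032911; chromosome 9, 56865033 to 56899870, plus strand), the chondroitin sulphate proteoglycan NG2 of pericytes, was at 4.16 FPKM against 4.35, 3.82 and 3.58 FPKM. It lay inside the wild type range with a difference of 0.07 (95% interval -0.27 to 0.42), or -0.036 once FPKM totals were made equal. Relative to Pdgfrb in the same library, Cspg4 was at 0.15 in the Cd248 knockout and at 0.11, 0.09 and 0.11 in the wild type libraries. Des was at 0.296 of Pdgfrb in the Cd248 knockout, slightly below the 0.304, 0.313 and 0.306 of the wild type libraries. Rgs5 was at 0.94 of Pdgfrb against 0.79, 0.82 and 0.83, so that Cspg4 and Rgs5 lay above the wild type range relative to Pdgfrb.

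**Figure D3:**
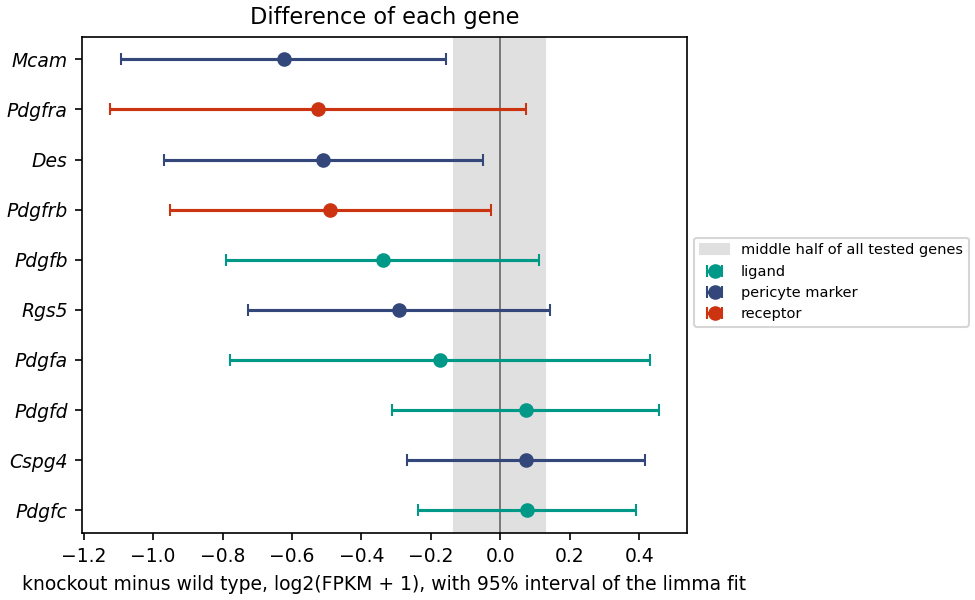
Knockout minus wild type mean on the log2(FPKM + 1) scale for each gene, with the 95% interval of the limma fit, ordered from lowest to highest. The grey band holds the middle quartiles of all tested genes (-0.13 to 0.13); the intervals of Mcam, Des and Pdgfrb lie below 0 and the others include 0.

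The levels of these genes ranked from Pdgfrb at 39.0 FPKM in wild type, through Rgs5 (31.6), Mcam (27.5), Pdgfb (25.6), Pdgfra (18.9), Des (12.0), Pdgfd (10.7) and Pdgfa (10.3), to Pdgfc (3.99) and Cspg4 (3.92). Neighbours in that order overlapped between wild type libraries except at 2 steps, between Pdgfra and Des and between Pdgfa and Pdgfc. Within single libraries Pdgfrb exceeded Rgs5 and Rgs5 exceeded Mcam in 3 of 3 wild type libraries, while Mcam exceeded Pdgfb in 2 of 3. FPKM is scaled to transcript length, so these are levels per length. The wild type libraries differed among themselves in a common way: replicate 3 was the lowest of the 3 for 9 of the 10 genes, Pdgfc being the exception, and for 47.4% of all tested genes. Replicate 2 was the highest for 6 of the 10 and for 29.2% of all tested genes. The coefficient of variation between wild type libraries ran from 8.28% for Pdgfc to 20.8% for Pdgfa.

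Genes most like each member were those with the smallest Euclidean distance between profiles of log2(FPKM + 1) over the 4 libraries, centred on the wild type mean. Among the 10 genes the closest pair was Pdgfrb and Des (0.03), followed by Pdgfb and Rgs5 (0.07). For Pdgfrb the 3 nearest tested genes were Mir10a (0.02), Des (0.03) and Srf (0.05), which encodes serum response factor. Those of Des were Pdgfrb, the elastic fibre crosslinking enzyme gene Loxl1 and Emilin1. Pdgfra was closest to Col8a2, Cav3 and Serping1, and Mcam to Cebpb, Cd276 and Selp. Pdgfb was closest to Lmcd1, Dsc2 and Ptgir, and Rgs5 to Arhgap29, Ank and Tgfbr2. Pdgfa was closest to Rtl10, Nes and Shisa3. Among the genes with differences above 0, Pdgfc was closest to Vps50, Lyrm2 and Gm10232, Pdgfd to Sorbs3, Net1 and Trim2, and Cspg4 to Psme1, Wdr54 and Sf1. Srf was at 10.2 FPKM in the Cd248 knockout and at 15.3, 15.7 and 12.2 FPKM in wild type. Its ratio to the wild type mean was 0.71, and that of Pdgfrb was 0.70. This likeness follows from how Srf was picked, by its nearness to Pdgfrb, and a link between these genes was not tested. All resemblances named here are over 4 libraries, of which 3 set only the wild type scatter.

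Genes that process, bind or retain PDGF were also mostly lower, without passing the test. Of 10 such genes 0 passed, 7 lay below every wild type library (31.2% of all tested genes did), 1 lay above and the median difference was -0.23. Sparc, a matrix protein that binds PDGF-B, was at 176 FPKM in the Cd248 knockout against 315 ± 43.8 FPKM (SD, n = 3; -0.82, limma adjusted p = 0.315). Lrp1, an endocytic partner of receptor beta, was at 14.3 against 23.1 ± 2.64 FPKM (limma adjusted p = 0.307), and Hspg2, the heparan sulphate proteoglycan perlecan, at 13.7 against 22.2 ± 3.66 FPKM (limma adjusted p = 0.405). The one gene above the wild type range was Plau, the urokinase that activates PDGF-D, at 195 FPKM against 158, 149 and 133 FPKM (limma adjusted p = 0.439). Plat, the activator of PDGF-C, lay inside the range with 31.1 FPKM against 37.6, 34.6 and 21.3 FPKM.

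Downstream of the receptors, 0 of 29 signal transducers passed, with 19 below every wild type library, 1 above and a median of -0.13. Of all tested genes, 31.2% lay below every wild type library. The median of the transducers was -0.075 without wild type replicate 1 and -0.25 once FPKM totals were made equal. The widest differences were those of the adaptors Grb10 (9.09 against 12.0 ± 0.72 FPKM), Shc1 (18.5 against 23.4 ± 0.53 FPKM) and Crkl (9.12 against 11.3 ± 0.28 FPKM; SD, n = 3, limma adjusted p between 0.326 and 0.395). Genes that respond quickly to growth factors had a median of -0.45, with 0 of 17 past the test and 14 below every wild type library. Nr4a1, a nuclear receptor induced by growth factors, was at 2.74 FPKM in the Cd248 knockout and at 11.0, 16.9 and 7.78 FPKM in wild type (limma adjusted p = 0.315). Dusp1, a phosphatase that turns off MAP kinases, was at 7.02 against 15.6, 19.6 and 13.6 FPKM (limma adjusted p = 0.260), and Fos at 4.02 against 10.1, 9.97 and 4.22 FPKM (limma adjusted p = 0.642). Wild type replicate 3 was the lowest wild type library for each of these 3 genes as well. Whether the values of the response genes reflect PDGF receptor signalling was not tested.

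In the exchange between endothelium and mural cells 1 of 13 genes passed the test. Angpt2, the endothelial ligand that loosens pericyte contact, fell in the Cd248 knockout, to 3.02 FPKM from 7.38, 8.15 and 7.80 FPKM in wild type. The difference was -1.13 on the log2 scale (SE 0.10, limma adjusted p = 0.0332), and the adjusted p was 0.146, 0.198 and 0.223 without wild type replicate 1, 2 or 3 and between 0.0564 and 0.114 in the other 4 alternatives in which it missed the threshold. Of the 13 genes, 10 lay below every wild type library (31.2% of all tested genes did) and the median difference was -0.34. Angpt1, the pericyte ligand of the same receptor, was inside the wild type range with 2.20 FPKM against 2.13, 2.55 and 2.34 FPKM. Tek, that receptor, was at 8.76 against 11.4, 13.7 and 11.4 FPKM (limma adjusted p = 0.425).

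Other pericyte markers had a median difference of -0.24 on the log2 scale, and of -0.36 once FPKM totals were made equal. Of the 16 listed, 14 passed the filter, 0 passed the test and 8 lay below every wild type library (31.2% of all tested genes did). Ndufa4l2 was at 5.69 FPKM in the Cd248 knockout against 10.4 ± 2.46 FPKM (SD, n = 3; limma adjusted p = 0.439), Ednra, an endothelin receptor of mural cells, at 3.18 against 5.30 ± 0.37 FPKM (limma adjusted p = 0.252) and Kcnj8, a potassium channel subunit of pericytes, at 3.25 against 5.20 ± 1.36 FPKM (limma adjusted p = 0.589). The Foxd1, Vtn and Tbx18 values were under 1 FPKM in all 4 libraries. Their list summed to 76.8 FPKM in the Cd248 knockout and to 97.3, 102.4 and 80.6 FPKM in the wild type libraries. In whole kidney RNA, fewer cells of a type and less RNA per cell cannot be told apart.

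Smooth muscle and fibroblast genes had lower medians than the differences of the PDGF receptors. Acta2, the smooth muscle actin of myofibroblasts, fell to 38.9 FPKM from 136 ± 7.81 FPKM (SD, n = 3; limma adjusted p = 0.0153). Its adjusted p was between 0.108 and 0.119 without 1 wild type library, and 0.0598 with immunoglobulin genes left out and FPKM totals made equal. It was the 1 of 9 tested smooth muscle genes that passed. All 9 lay below every wild type library (31.2% of all tested genes did), with a median of -0.84. Among 13 fibroblast genes, Col1a1 (type I collagen) was the 1 that passed (68.8 against 163 ± 6.21 FPKM, limma adjusted p = 0.0313), 9 lay below every wild type library and the median was -0.58. The adjusted p of Col1a1 was between 0.142 and 0.309 without 1 wild type library, 0.0651 with a pseudocount of 0.1 FPKM, 0.0613 with no filter and 0.114 with immunoglobulin genes left out and FPKM totals made equal. Within the same library Pdgfrb was 0.70 times Acta2 in the Cd248 knockout and 0.31, 0.30 and 0.25 times in wild type, which is 2.45 times the wild type mean ratio. Rgs5 over Acta2 was 2.82 times and Des over Acta2 2.36 times the wild type mean ratio. Relative to Col1a1, Pdgfrb was 1.67 times and Pdgfra 1.60 times the wild type mean ratio. All 5 ratios lay above every wild type library. Acta2 and Col1a1 were chosen as denominators after their values were known, so these ratios are descriptions.

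**Figure D4:**
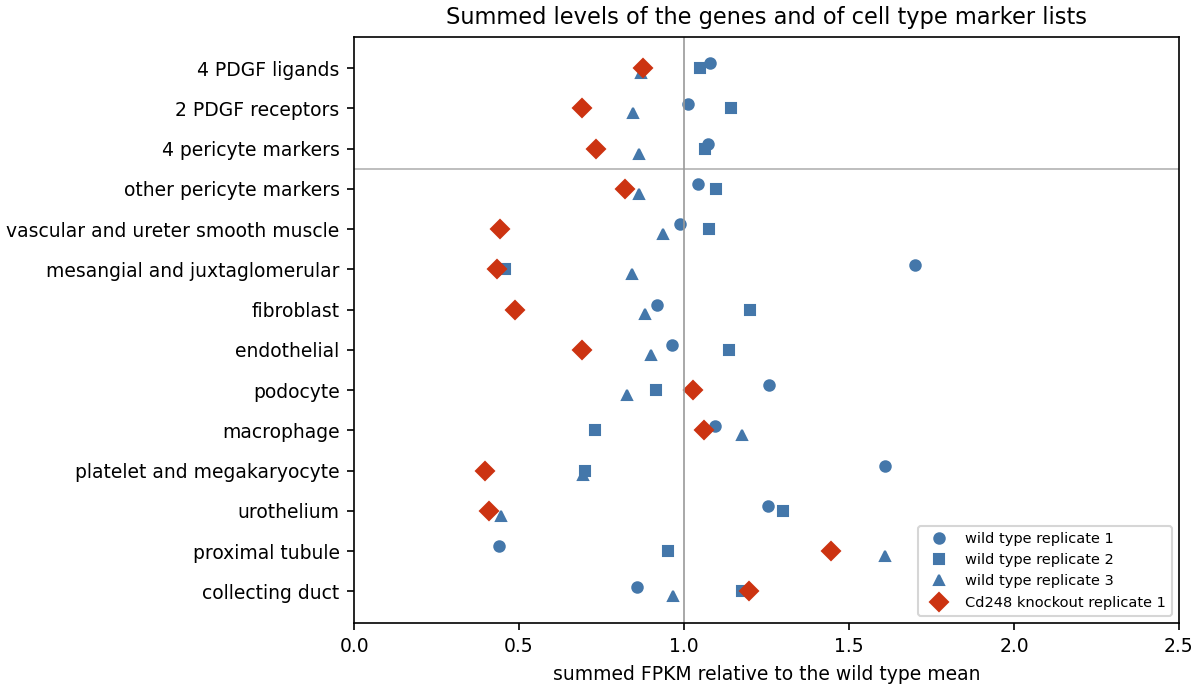
Summed FPKM of the PDGF ligands, PDGF receptors and pericyte markers (above the grey line) and of marker lists of other cell types (below it) in each library, divided by the wild type mean of the 3 wild type libraries (blue symbols; red diamonds, knockout replicate 1). The receptors stand at 0.69 in the Cd248 knockout, between the other pericyte markers (0.82) and the smooth muscle list (0.44), and the endothelial list stands at 0.69.

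Endothelial markers, which matter here because endothelium also makes Pdgfb and Mcam, lay below every wild type library for 15 of 15 genes. Across all tested genes that share was 31.2%. None of the 15 markers passed the test, and their median was -0.45 and their sum 213 FPKM against 298, 351 and 278 FPKM. The widest differences were those of Cdh5, the endothelial cadherin (15.0 against 28.1 ± 4.46 FPKM), Robo4 (4.56 against 8.14 ± 1.26 FPKM) and Eng (31.1 against 48.4 ± 6.12 FPKM; SD, n = 3, limma adjusted p between 0.305 and 0.343). Pdgfb was 1.12 times Pecam1, a general endothelial marker, in the Cd248 knockout and 1.10, 0.95 and 1.05 times in wild type. Mcam was 0.98 times Pecam1 against 1.29, 0.93 and 1.14 times, inside the wild type range. Platelet genes, another source of Pdgfb transcripts, summed to 16.1 FPKM in the Cd248 knockout against 65.1, 28.3 and 28.0 FPKM. Of the 5 listed, 3 were under 1 FPKM in every library, so Pf4 and Ppbp set the sum. Of the 3 tested genes 0 passed the test, 2 lay below every wild type library and 1 above. Ppbp was at 3.41 against 16.8 ± 8.93 FPKM (SD, n = 3). The gene above was Itga2b, at 0.85 FPKM against 0.72, 0.78 and 0.80 FPKM. The part of the endothelial and platelet values in the values of Pdgfb and Mcam was not tested.

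Of the 6 mesangial and juxtaglomerular genes, Ren1 (renin) and Akr1b7 varied widely between the wild type libraries, with coefficients of variation of 82.9% and 109%. Those of the other genes ran from 7.09% (Agtr1a) to 12.9% (Itga8). The list summed to 72.4 FPKM in the Cd248 knockout and to 285, 76.4 and 141 FPKM in wild type. That sum was set mainly by Ren1, at 31.5 FPKM against 227, 31.2 and 101 FPKM. Itga8, an integrin subunit of mesangial cells, was at 4.11 against 6.04 ± 0.78 FPKM (SD, n = 3, limma adjusted p = 0.431). Serpine2 was at 19.3 FPKM against 18.5, 19.4 and 15.4 FPKM, and Agtr1a at 10.9 against 11.5, 10.6 and 12.2 FPKM, both inside the wild type range. Of the 6 genes of that list 0 passed, 2 lay below every wild type library and 0 above. Their median difference was -0.36, and between -0.47 and -0.16 over the 11 alternatives. Podocyte and macrophage lists lay inside the wild type range in sum, at 126 FPKM against 101 to 154 FPKM and at 1125 FPKM against 774 to 1246 FPKM. Urothelial genes summed to 24.9 FPKM in the Cd248 knockout against 76.5, 79.4 and 27.2 FPKM, so wild type replicate 3 was low there as it was for the PDGF genes. Most of the knockout sum was Krt20, at 19.3 FPKM against 22.2, 20.1 and 14.9 FPKM. The other 5 of these 6 genes lay below every wild type library (31.2% of all tested genes did), and Upk2 was listed at 0 in the Cd248 knockout. The median of the urothelial list was -1.82, and 0 of its genes passed the test. Proximal tubule genes summed to 195 FPKM against 59.3, 129 and 217 FPKM, where wild type replicate 3 was the highest. Of the B and plasma cell genes, 4 of 6 rose (Jchain, Mzb1, Cd79a and Pou2af1; limma adjusted p between 0.00342 and 0.0422), and that list summed to 351 FPKM against 17.5, 12.4 and 10.5 FPKM. Mzb1 passed in each of the 11 alternatives. The adjusted p of Jchain was 0.0987 without replicate 2 and 0.119 without replicate 3, 0.0573 with a pseudocount of 0.1 FPKM and 0.0837 with no filter. That of Pou2af1 was 0.0866 without replicate 1 and 0.0738 without replicate 3, and that of Cd79a lay between 0.112 and 0.196 in the 6 alternatives in which it missed the threshold, those without 1 wild type library among them. The part of these differences in cell makeup in the values of the PDGF and pericyte genes was not tested.

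The annotation terms largely restate the choice of these genes, and no share over all genes was computed for them. Position was not used in the choice. The term for positive regulation of fibroblast proliferation was given in the deposited table to 6 of the 10, the ligands and the receptors, and that for PDGF receptor signalling to 7, including Cspg4. None of the 10 lies on chromosome 19, where Cd248 is. Mcam, Cspg4 and Pdgfd share chromosome 9, Des and Rgs5 chromosome 1, and Pdgfra and Pdgfa chromosome 5. Antisense gene models overlap several of these genes, and the strand setting of the counting is not stated. If strand was not used, reads of the overlapping parts cannot be told apart. The highest were 6330403L08Rik over Pdgfa, at 1.49 FPKM in the Cd248 knockout and 2.37, 2.05 and 1.73 FPKM in wild type, and Gm10687 over Mcam, at 1.12 against 1.01, 0.77 and 0.77 FPKM. Cbl, a ubiquitin ligase that acts on activated PDGF receptors, lies 249 bases beyond Mcam, and it was at 9.81 FPKM against 11.2, 9.89 and 10.1 FPKM.

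In the authors' deposited table none of the 10 genes is marked as significant, against 1.40% of all tested genes. Its fold change was 0.63 for Mcam (q-value 0.08), 0.67 for Des (q-value 0.31), 0.67 for Pdgfra (q-value 0.32) and 0.70 for Pdgfrb (q-value 0.31). That table gives a fold change of 0.78 for Pdgfb (q-value 0.75) and of 0.81 for Rgs5 (q-value 0.94), and q-values of 1 for Pdgfa, Pdgfc, Pdgfd and Cspg4.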

How the data were processed

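RNA of obstructed kidneys was extracted with Trizol and selected on oligo(dT) beads, per the labels' protocols. The tools cutadapt 1.9, FastQC and HISAT2 2.0.4 and the build mm10 are named, without roles, per the submitters' processing notes. The FPKM program and gene models: not given in the sources used here. Gene values were deposited by the authors as FPKM, named so in the column headers, with 2 decimals. The authors' deposited fold change is a ratio, knockout FPKM over the wild type mean (matching, for 100% of the 14229 genes checked at 1 FPKM or more, within 0.01 plus 1% of the value), and their deposited log2 column is the log2 of it. The test behind the p-value and q-value columns that the authors deposited, not given in the sources used here, was not repeated.

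Groups were taken from the sample titles. Knockout replicates 2 and 3 were not analysed here. FPKM holds no counts, so the depth is unknown and no counting interval was computed. A filter kept the 16871 genes averaging 0.5 FPKM or more. Their log2(FPKM + 1) values, on which fold changes of low genes are understated, were fitted with limma 3.58.1 in R 4.3.3, using a mean-variance trend. Tests were two-sided, with Benjamini-Hochberg adjustment over all tested genes, at a threshold of 0.05. There were 2 residual and 2.32 prior degrees of freedom. Only wild type libraries inform the spread, so the single knockout is taken to vary as they do. The fit was tested on simulated data. Positions are from GENCODE M21, and annotation terms from the deposited table.

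The 10 genes and the gene lists were chosen with earlier results of these data known. Genes named from a list are all that passed the test or, where none did, genes among the 3 with the widest difference. Not all 3 are named for every list. Cd248, Kit, Kdr and Csf1r and the 3 nearest profiles of each member are named as well. Other genes named from the lists and neighbours, such as Plau, Plat, Angpt1, Tek, Serpine2, Agtr1a and Cbl, were added after their values were seen. Alternatives were another pseudocount, other filters, other scalings, leaving out the immunoglobulin genes together with equal FPKM totals, limma without the trend and leaving out each wild type library.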

Additional observations from a re-analysis of the deposited data

How the results depend on the processing

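Under all 11 alternatives 0 of the 10 genes passed limma's test, with 3 at an unadjusted p under 0.05 in the reported fit and between 0 (without wild type replicate 2) and 6 (without replicate 3) over the alternatives. At that unadjusted threshold the share of all tested genes was 10.8% in the reported fit. It was lower without replicate 2 and slightly higher without replicate 3. The count of the 10 genes below every wild type library was 6 or 7, the 7th being Pdgfa, with equal FPKM totals and without replicate 3. The share of all tested genes below every wild type library then was 49.6% and 41.7%. The median difference of the 10 genes stayed between -0.44 and -0.24. Making FPKM totals equal moved the median of all genes to -0.11, so that Pdgfc stood at -0.0320, Pdgfd at -0.0514 and Cspg4 at -0.0358, all above that median; without 1 wild type library Pdgfd ranged from -0.0117 (replicate 3) to 0.136 (replicate 2). Housekeeping genes had a median of 0.06, which became -0.0614 with that scaling and -0.0646 with quantile normalization.

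Over all genes, 122 passed in the reported fit, 39 with a pseudocount of 0.1 FPKM, 205 with no filter, 6 with the immunoglobulin genes left out and FPKM totals then made equal, and between 45 and 73 without 1 wild type library. Of the listed pathway and marker genes 7 passed, against 3 with that pseudocount, 3 with no filter, 3 with the immunoglobulin genes left out and totals made equal, and between 1 and 3 without 1 wild type library. Equal totals alone gave 153 genes, and leaving out the immunoglobulin genes alone was not run. Angpt2 missed the threshold in 7 of 11 alternatives, Col1a1 in 6 and Acta2 in 4. No paired analysis was possible because the sample titles give genotype and replicate number and no pairing of libraries. Unknown depth and a single knockout library limit every value.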
